A study of Mus musculus with 6 samples.

Results

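The 42 genes described here encode the machinery that brings proteins to the endoplasmic reticulum (ER), moves them through or into its membrane and removes their signal peptides. They come from a list of gene symbols grouped by known function, drawn up with earlier results of these data known, and were matched to the Ensembl identifiers of mouse liver RNA-seq count tables, in which all 42 were found among 54232 genes. The livers were from chow-fed C57BL/6 males of 8 to 10 weeks, with 3 libraries in each of 2 groups. All mice were null for FXR, a nuclear receptor for bile acids (gene Nr1h4). The SKO group (Fxr-/-Xbp1fl/fl) carried floxed Xbp1 alleles, and the DKO group (Fxr-/-Xbp1LKO) also lacked Xbp1 in liver. The promoter behind the deletion is not given in the sources at hand, and the titles of 3 DKO libraries and 1 SKO library carry a pair of numbers whose meaning is not given either, so these could be pools of animals. The comparison asked what loss of hepatic XBP1, which drives transcription in the unfolded protein response, changes in FXR-null liver.

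Secreted and membrane proteins are recognised as they leave the ribosome by the signal recognition particle (SRP), which docks at its receptor on the ER and hands the ribosome to the Sec61 channel. Around that channel sit Sec62 and Sec63, the translocon-associated protein (TRAP) complex, TRAM and RAMP4, and the signal peptidase that trims the entering chain. Proteins anchored by a hydrophobic segment at their tail are inserted after synthesis by the GET pathway, and many other membrane proteins use the ER membrane protein complex (EMC). Hepatocytes secrete most plasma proteins and so make heavy use of the first route, and XBP1 is known as a regulator of genes for ER expansion and secretion.

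Xbp1 stood at 225, 261 and 255 normalised counts-per-million (CPM, counts scaled by the library total over tested genes and its TMM factor) in SKO and at 95.8, 67.1 and 68.3 in DKO, so the groups did not overlap. Its log2 fold change was -1.68 ± 0.14 (SE; edgeR quasi-likelihood test, adjusted p = 0.000146). Counts summed over the gene cannot show which exons were deleted. Nr1h4 had 98.6 ± 5.94 CPM in SKO and 97.4 ± 3.35 CPM in DKO (SD, n = 3), which does not check the FXR genotype, since the exons its null allele lacks are not given. Total counts ran from 16966422 to 21107674 per library, and 3 counts, the upper 95% limit for a count of 0, correspond to between 0.126 and 0.191 CPM. Whether each library is a different mouse is not in the labels, so the p-values rest on the spread among libraries, which may be technical. Scaling by total counts alone, without TMM factors, shifted the log2 fold change of the median tested gene from 0.0059 to 0.23, so changes are given relative to that gene. With TMM 51.6% of called genes were higher, with upper-quartile factors 65.3% and with total counts 87.8%. Summed levels of markers of other cell types moved with genotype. The 6 cholangiocyte markers summed to 61.2 to 74.0 CPM in SKO and 121 to 199.7 in DKO, the 7 stellate cell and fibroblast markers to 347 to 414 and 603 to 891, the 6 macrophage markers to 362 to 465 and 496 to 744, and the 6 B and plasma cell markers to 179 to 183 and 248 to 301. Hepatocyte markers summed to 76356 to 103545 CPM in SKO and 49144 to 61137 in DKO, and endothelial markers to 346 to 377 and 322 to 354. All cholangiocyte, stellate cell and fibroblast, and macrophage markers had log2 fold changes above 0, but not all were called. The hepatocyte, endothelial, and B and plasma cell lists held both signs. Called higher were 3 of 6 cholangiocyte, 5 of 7 stellate cell and fibroblast, 3 of 6 macrophage and 2 of 5 tested B and plasma cell markers (Sdc1 and Jchain). Sdc1, at 176 ± 1.81 CPM in SKO and 269 ± 25.7 in DKO, makes up most of that last sum, and Cd79a, Cd79b and Ms4a1 were not called. Spp1, at 55.7 ± 7.11 CPM in SKO and 134 ± 36.4 in DKO, makes up most of the cholangiocyte sum, and Krt7, Sox9 and Cftr were not called. Alb, at 66486 ± 11829 CPM in SKO and 35799.6 ± 5183 in DKO, makes up most of the hepatocyte sum. Alb, Apoa1 and Ttr fell, while Tat (log2 0.59 ± 0.38), Cps1 (-0.24 ± 0.16) and Hnf4a (0.11 ± 0.13) were not called. No marker was at 0 in every library. The part of these differences in the results was not tested, and in whole liver fewer cells of a type and less RNA per cell cannot be told apart.

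Of the 42 genes, 41 had enough counts to be tested. In DKO 17 fell and 1 rose at an edgeR adjusted p under 0.05, while 23 were not called. Over all 13986 genes tested, 9.70% were called lower and 10.3% higher. DKO libraries lay wholly below SKO libraries for 19 of the 41 genes and wholly above for 2, where all tested genes gave 19.4% and 20.2%. The median log2 fold change of the 41 genes was -0.14, beside 0.0059 over all tested genes. The 17 lower genes kept 49.1% to 82.4% of their SKO level, with a median of 67.5%. Their falls were thus moderate, and only Sec61b lost as much as 1 log2 unit. All 42 genes together had 3085, 3130.5 and 3188 CPM in SKO and 2439, 2436 and 2431 CPM in DKO. As a share of raw counts, without TMM factors, they made up 0.290% ± 0.0110 in SKO and 0.263% ± 0.0108 in DKO.

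The calls were spread unevenly over the roles. In the 8 groups of genes from SRP to signal peptidase, which serve proteins with a signal sequence, 16 of 26 tested genes fell and none rose, with a median log2 fold change of -0.40. At an unadjusted edgeR p under 0.05 the counts were the same, 16 lower and 0 higher, and DESeq2 also called 16 lower and 0 higher. In the GET pathway and the EMC together, 1 of 15 tested genes fell and 1 rose, with a median of 0.06. DESeq2 called 1 of these 15 lower and 0 higher, against 9.66% and 9.97% of all genes. With total counts only, 12 of the 26 genes were lower and 1 higher (Srp14), with a median of -0.18. Of the 15, 0 were lower and 8 higher, with a median of 0.28. Of all tested genes, 3.85% were lower and 27.6% higher with that scaling, with a median of 0.23. The difference between these sets of genes was not tested.

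**Figure D1:**
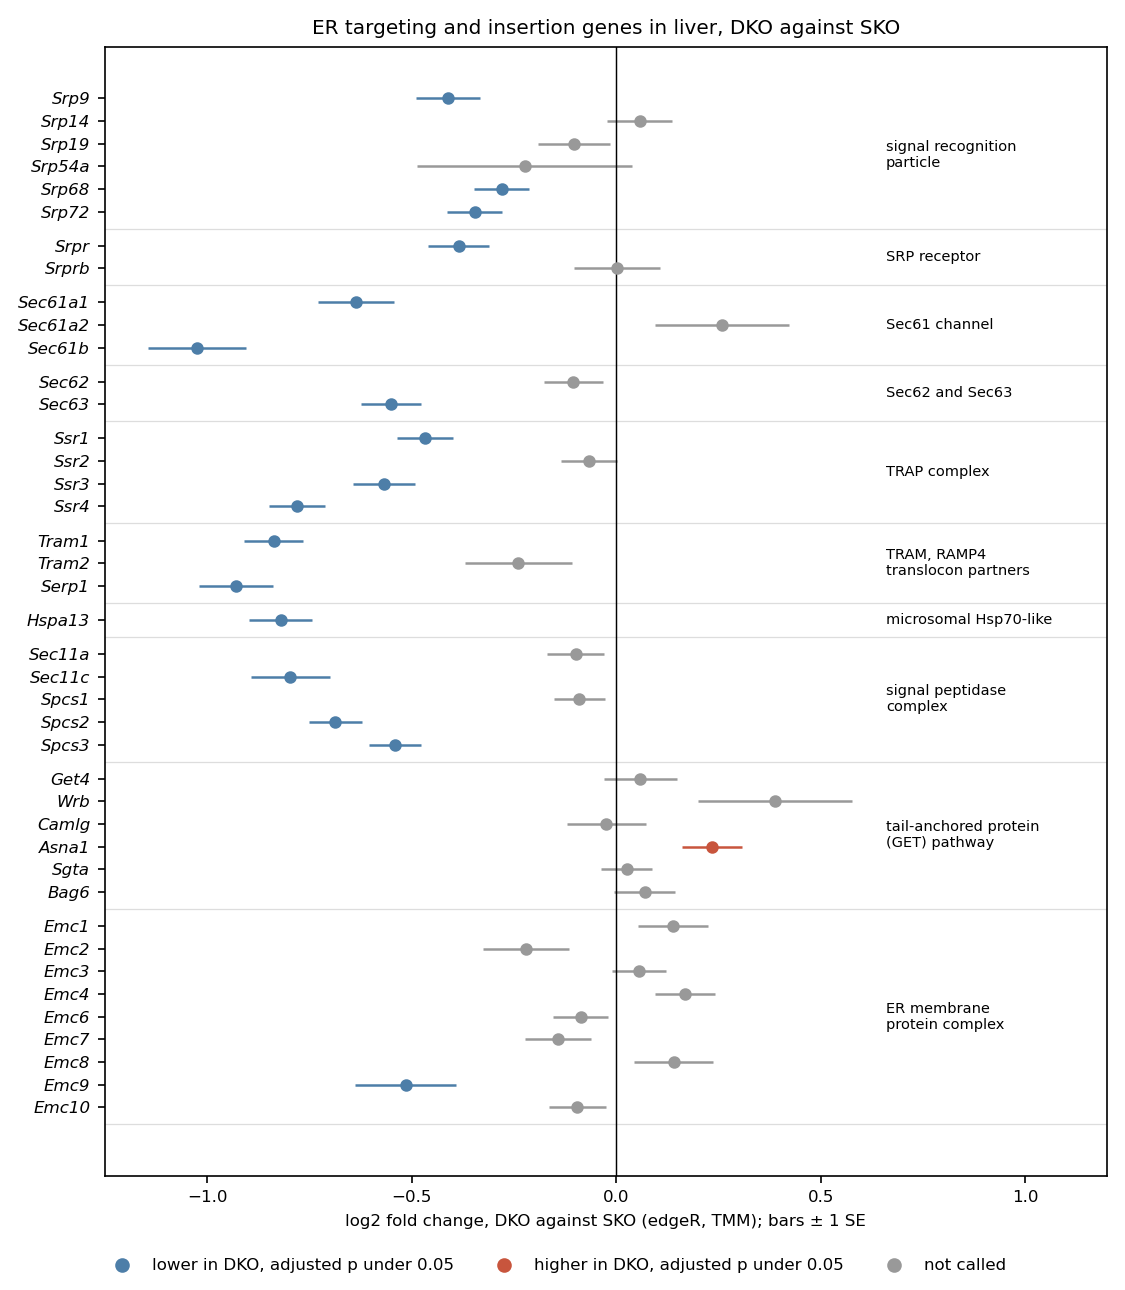
Log2 fold change of each of the 41 tested genes, DKO against SKO, with bars of ± 1 SE from edgeR, grouped by role from top to bottom. Blue marks the 17 genes called lower, red the 1 called higher (Asna1) and grey the 23 not called, and the blue points lie in the upper groups except for Emc9.

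Promoters are shown for the 4 genes with the smallest p among those that fell and had an entry in the sequence table, which leaves out Tram1 and Hspa13. They come from RefSeq on GRCm38.p6, the assembly of mm10, and run from 250 bases before to 50 after the annotated start, 5′ to 3′ on the strand of the gene. Ssr4 is at chrX:73786773-73787072 on the plus strand, Spcs2 at chr7:99858834-99859133 on the minus strand, Serp1 at chr3:58525835-58526134 on the minus strand and Sec61b at chr4:47474411-47474710 on the plus strand. Capitals mark CCACG, a part of ER stress response elements, and ACGTG, the core of sites that XBP1 and related factors are known to bind, each searched on both strands and allowed to overlap.
Serp1: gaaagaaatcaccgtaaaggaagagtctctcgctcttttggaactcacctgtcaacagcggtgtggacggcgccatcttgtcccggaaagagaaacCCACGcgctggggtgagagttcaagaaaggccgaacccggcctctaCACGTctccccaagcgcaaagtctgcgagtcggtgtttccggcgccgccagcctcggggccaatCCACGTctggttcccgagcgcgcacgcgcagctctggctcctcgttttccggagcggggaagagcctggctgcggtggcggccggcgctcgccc
Spcs2: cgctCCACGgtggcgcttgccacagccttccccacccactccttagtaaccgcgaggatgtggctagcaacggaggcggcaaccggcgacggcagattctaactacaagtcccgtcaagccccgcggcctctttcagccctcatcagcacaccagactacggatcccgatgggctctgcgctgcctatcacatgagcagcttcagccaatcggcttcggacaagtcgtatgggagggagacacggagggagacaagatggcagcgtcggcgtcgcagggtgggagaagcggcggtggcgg
Ssr4: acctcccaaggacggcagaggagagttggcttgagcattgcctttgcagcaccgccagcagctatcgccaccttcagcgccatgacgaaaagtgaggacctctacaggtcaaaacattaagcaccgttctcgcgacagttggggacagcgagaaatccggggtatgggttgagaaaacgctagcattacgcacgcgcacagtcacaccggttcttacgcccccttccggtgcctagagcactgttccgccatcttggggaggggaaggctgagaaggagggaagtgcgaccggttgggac
Sec61b: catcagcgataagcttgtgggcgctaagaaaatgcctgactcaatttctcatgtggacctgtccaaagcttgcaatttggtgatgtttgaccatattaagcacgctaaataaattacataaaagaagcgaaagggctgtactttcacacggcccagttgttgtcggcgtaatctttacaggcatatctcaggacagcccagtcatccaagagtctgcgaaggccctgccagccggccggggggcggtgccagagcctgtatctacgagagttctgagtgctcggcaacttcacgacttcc
Serp1 carried CCACG at bases 97 to 101 and 207 to 211 of the window and the reverse complement of ACGTG at bases 143 to 147 and 208 to 212. Spcs2 carried 1 CCACG, at bases 5 to 9. Ssr4 and Sec61b had neither in this window. Promoters were found for 31 of the 42 genes and not for Srp19, Srp68, Sec61a1, Ssr2, Tram1, Hspa13, Sec11c, Spcs3, Camlg, Emc2 and Emc8. ACGTG was in the promoters of 15 of the 31 genes and CCACG in those of 20, while of 27025 genes with an entry 21.8% had ACGTG and 35.5% had CCACG. These 27025 genes were not limited to those expressed in liver or matched for base composition, so the shares cannot show enrichment. Among the 11 lower genes with a promoter, 5 had ACGTG and 7 had CCACG, and among the other 20 genes 10 and 13 did. The longer forms CCAAT and CCACG with 9 bases between (ER stress response element), ATTGG and CCACG with 1 base between (its second form) and TGACGTGG (unfolded protein response element) were in 0 of the 31 and in 0.137%, 0.0444% and 0.714% of all genes. These are matches of letters in 1 window per start and show no binding.

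Of 8 tested genes of SRP and its receptor, 4 fell with TMM scaling. All 4 calls ended with total counts only, with log2 fold changes of -0.19 for Srp9, -0.060 for Srp68, -0.13 for Srp72 and -0.17 for Srpr (edgeR adjusted p = 0.117, 0.492, 0.187 and 0.0991). Srp72, a protein of the SRP core that binds Srp68, had 152, 154 and 149 CPM in SKO and 120.3, 119 and 118 in DKO. The groups were tight and well apart, and the gene fell (log2 -0.35 ± 0.07, edgeR adjusted p = 0.00672). Srp9, which with Srp14 forms the part of SRP that slows translation, had 36.8, 36.3 and 38.8 CPM in SKO and 27.6, 30.1 and 26.5 in DKO (log2 -0.41 ± 0.08, edgeR adjusted p = 0.00665). Its partner Srp14 averaged 39.1 ± 3.34 CPM in SKO and 40.7 ± 0.741 in DKO and was not called (log2 0.06 ± 0.08). Srp68 had 64.4 ± 2.21 and 53.1 ± 2.09 CPM (log2 -0.28 ± 0.07, edgeR adjusted p = 0.0167), and its call ended when SKO replicate 2, DKO replicate 1 or replicate 3 of DKO was left out (edgeR adjusted p = 0.0742, 0.0518 and 0.0548). Srp19 was not called (log2 -0.10 ± 0.09).

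Srp54a, the subunit that binds the signal sequence, had only 18 to 27 counts in any library and was not called (log2 -0.22 ± 0.26). Of its 50-base stretches, 70.5% also occur in transcripts of Srp54b or Srp54c, its near-identical neighbours in the mouse genome, so its reads may have been dropped or divided. Srp54b had 0 counts in all libraries. Srp54c had 7.06, 8.01 and 6.71 CPM in SKO and 3.99, 5.33 and 5.19 in DKO (log2 -0.59 ± 0.16, edgeR adjusted p = 0.0300). Expression of this subunit as a whole is therefore uncertain in these counts.

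The receptor has an alpha subunit that meets SRP and a beta subunit that anchors it. Srpr, the alpha subunit, had 179.7, 191 and 194 CPM in SKO and 138, 148 and 146 in DKO. Each DKO library lay below each SKO library (log2 -0.39 ± 0.07, edgeR adjusted p = 0.00665). Srprb, the beta subunit, overlapped fully between groups, with 16.5 ± 1.63 and 16.5 ± 1.31 CPM and a log2 fold change of 0.0011 ± 0.10. Of the exon bases of Srprb, 20.7% are shared with the gene model Gm20425 on the same strand.

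Subunits of the Sec61 channel showed the furthest fall and also a paralog that was not called. Sec61b, the beta subunit, had 28.3, 24.6 and 28.1 CPM in SKO and 13.8, 10.996 and 14.9 in DKO. Its DKO level was 49.1% of that in SKO (log2 -1.03 ± 0.12, edgeR adjusted p = 0.000504). Sec61a1, which forms the pore (chromosome 6, 88503579 to 88518905 in mm10), had 136, 149.7 and 171 CPM in SKO and 104, 94.96 and 94.7 in DKO. The spread was wide in SKO, yet every DKO library lay below every SKO library (log2 -0.64 ± 0.09, edgeR adjusted p = 0.00172). Sec61a2, a second alpha subunit, had 5.66, 4.28 and 5.41 CPM in SKO and 6.77, 5.62 and 5.92 in DKO. These groups overlapped and the gene was not called (log2 0.26 ± 0.16, edgeR adjusted p = 0.300), and 19.9% of its exon bases lie over Nudt5 on the other strand.

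The third subunit, Sec61g, could not be tested. It had 7, 8 and 8 counts in SKO and 4, 4 and 2 in DKO. These few reads come from a small gene of which 14.8% of 50-base stretches occur in other annotated transcripts, most of them in Gm10177. Whether this low count reflects low expression was not tested. Sec61b, Srp9 and Srpr also share 17.4%, 17.4% and 17.8% of their 50-base stretches with other annotated transcripts, so some of their reads may not have been counted.

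Of the pair that works with Sec61 on chains inserted after or late in synthesis, Sec63 changed and Sec62 was not called. Sec63, a J-domain protein that recruits the chaperone BiP, had 179, 190.1 and 191 CPM in SKO and 128, 122 and 132 in DKO (log2 -0.55 ± 0.07, edgeR adjusted p = 0.000992). Sec62 had 162 ± 4.85 CPM in SKO and 150.4 ± 5.99 in DKO. Its DKO libraries lay below its SKO libraries, but by little (log2 -0.10 ± 0.07, edgeR adjusted p = 0.343).

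The TRAP complex, which aids the entry of chains with weak signal sequences, had 3 of its 4 genes lower. Ssr4, the delta subunit (chromosome X, 73787028 to 73790830), had 107, 98.3 and 98.4 CPM in SKO and 58.5, 60.4 and 57.7 in DKO. It fell to 58.2% of its SKO level (log2 -0.78 ± 0.07, edgeR adjusted p = 8.48e-05). Ssr3, the gamma subunit, had 291, 304 and 303 CPM in SKO and 209, 198 and 201 in DKO (log2 -0.57 ± 0.08, edgeR adjusted p = 0.00104). Ssr1, the alpha subunit, had 112 ± 5.17 and 81.0 ± 0.800 CPM (log2 -0.47 ± 0.07, edgeR adjusted p = 0.00162). Ssr2, the beta subunit, was not called, with 77.2 ± 2.59 and 73.8 ± 3.33 CPM (log2 -0.07 ± 0.07). The mRNAs of this complex thus did not move by a common factor.

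Of 4 genes for TRAM, RAMP4 and an Hsp70-like partner, 3 fell. Tram1, which lies beside Sec61 and contacts entering chains (chromosome 1, 13564698 to 13589910), had 127, 136 and 139 CPM in SKO and 76.0, 71.8 and 76.8 in DKO. Its log2 fold change was -0.84 ± 0.07 and it had the smallest edgeR adjusted p of the 41 genes, 8.35e-05. Serp1, which encodes RAMP4, a small protein known to protect newly made membrane proteins under ER stress (chromosome 3, 58519817 to 58525892), had 273, 282 and 319 CPM in SKO and 164, 149 and 146 in DKO. This was a fall to 52.5% (log2 -0.93 ± 0.09, edgeR adjusted p = 0.000172). Tram2, a paralog of Tram1, had 12.3, 14.3 and 17.6 CPM in SKO and 13.2, 12.5 and 11.8 in DKO. Its groups overlapped and it was not called (log2 -0.24 ± 0.13, edgeR adjusted p = 0.229). Hspa13, an Hsp70-like ATPase of microsomes, had 41.7, 39.5 and 40.6 CPM in SKO and 22.8, 21.7 and 24.4 in DKO (log2 -0.82 ± 0.08, edgeR adjusted p = 0.000146).

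**Figure D2:**
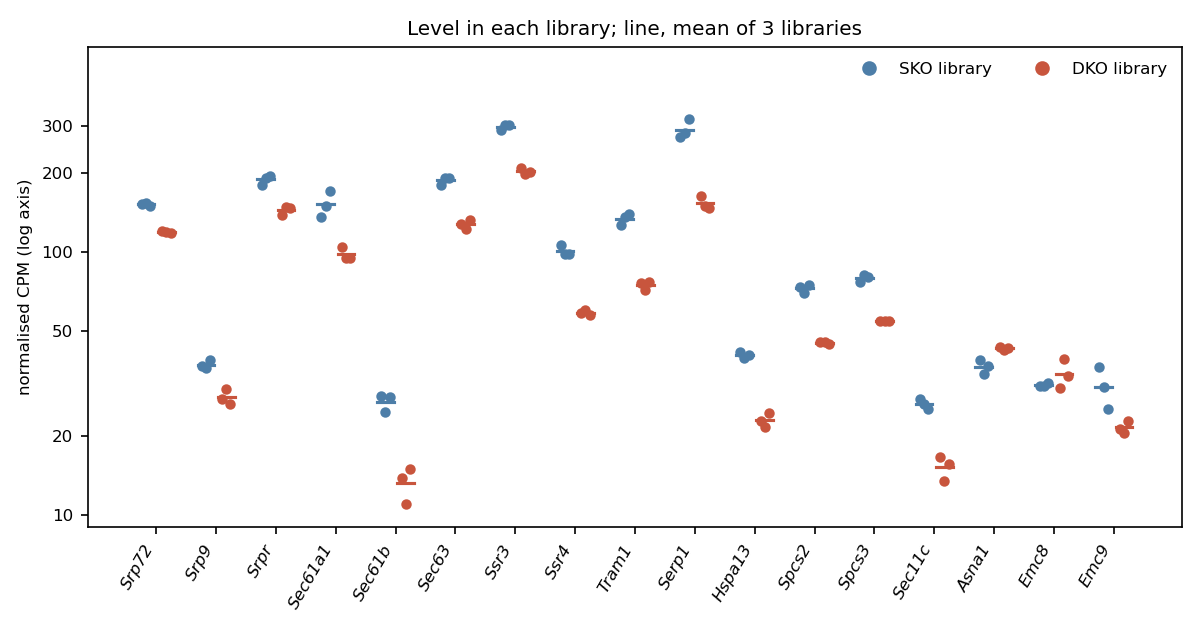
Normalised CPM on a log axis for 17 of the genes, with 1 point per library, SKO in blue and DKO in red, and a line at the mean of 3 libraries. The points separate fully for each gene from Srp72 to Sec11c, DKO libraries of Asna1 lie just above the SKO libraries, and those of Emc8 overlap.

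The signal peptidase complex, which cuts off signal peptides in the ER lumen, was reduced in 3 of its 5 genes. Spcs2, an accessory subunit (chromosome 7, 99837569 to 99863462), had 73.4, 69.8 and 75.2 CPM in SKO and 45.4, 45.5 and 44.8 in DKO. The 3 DKO libraries were close to each other and far from SKO (log2 -0.69 ± 0.06, edgeR adjusted p = 0.000143). Spcs3, which is needed for cleavage, had 76.8, 81.7 and 80.1 CPM in SKO and 54.6, 54.7 and 54.8 in DKO (log2 -0.54 ± 0.06, edgeR adjusted p = 0.000504). Sec11c, a catalytic subunit, had 27.7, 26.5 and 25.4 CPM in SKO and 16.6, 13.5 and 15.6 in DKO (log2 -0.80 ± 0.10, edgeR adjusted p = 0.000640). Sec11a, the other catalytic subunit, had 49.6 ± 2.06 CPM in SKO (47.3 to 51.2) and 46.4 ± 1.96 in DKO (45.2 to 48.6). It was not called (log2 -0.10 ± 0.07). Spcs1 was not called either, at 62.6 ± 2.03 and 58.9 ± 0.324 CPM (log2 -0.09 ± 0.06), although its DKO libraries lay below its SKO libraries.

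Of the 42 genes, none of the 6 in the GET pathway fell. Asna1, the ATPase that carries tail-anchored proteins to the ER, was the only gene of the 42 called higher, with 38.9, 34.3 and 36.8 CPM in SKO and 43.6, 42.5 and 43.2 in DKO (log2 0.23 ± 0.07, edgeR adjusted p = 0.0475). This call was marginal, and it ended without any single library other than SKO replicate 1 (edgeR adjusted p = 0.0831 to 0.193), with DESeq2 (0.116), with limma-voom (0.0507), with RLE factors (0.0511) and with no filter (0.0766). Wrb, a subunit of the membrane receptor for that ATPase, had 3.36 ± 0.474 and 4.41 ± 0.550 CPM and was not called (log2 0.39 ± 0.19). Camlg, the other receptor subunit, had 18.6 ± 0.641 and 18.3 ± 1.77 CPM (log2 -0.02 ± 0.10). Get4, Sgta and Bag6, which hold tail-anchored proteins before hand-over, were not called either. Their log2 fold changes were 0.06 ± 0.09, 0.03 ± 0.06 and 0.07 ± 0.07. Ubl4a, a GET pathway gene outside the 42, was called lower (log2 -0.25 ± 0.07, edgeR adjusted p = 0.0372). By edgeR 0 of the 6 GET genes among the 42 fell, where 9.70% of all tested genes did. At an unadjusted edgeR p under 0.05, 0 were lower and 1 higher. DESeq2 called 0 lower and 0 higher, where it called 9.66% and 9.97% of all genes.

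Of 9 EMC genes, which encode an insertase for membrane proteins, 1 fell and none rose by edgeR. That is near the 9.70% lower and 10.3% higher over all tested genes. Emc9 had 36.5, 30.6 and 25.4 CPM in SKO and 21.4, 20.5 and 22.8 in DKO. Its SKO libraries were widely spread but all above DKO (log2 -0.51 ± 0.12, edgeR adjusted p = 0.0178), and the call ended without SKO replicate 2 (edgeR adjusted p = 0.0548). Emc8, which encodes a paralog that can take the place of Emc9 in the complex, had 31.1, 31.1 and 31.8 CPM in SKO and 30.5, 39.3 and 33.8 in DKO and was not called (log2 0.14 ± 0.10). The remaining EMC genes were not called and had log2 fold changes from -0.22 ± 0.10 (Emc2) to 0.17 ± 0.07 (Emc4). Between these lay Emc7 at -0.14, Emc10 and Emc6 at -0.09, Emc3 at 0.06 and Emc1 at 0.14. At an unadjusted edgeR p under 0.05, 1 EMC gene was lower and 1 higher. DESeq2 called 1 EMC gene lower and 0 higher, where it called 9.66% and 9.97% of all genes. DKO libraries of Emc4 lay wholly above SKO.

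Within a library, the ratio of counts of a pair of paralogs does not depend on how libraries are scaled. Sec61a1 had 24.1, 35.0 and 31.6 counts for each count of Sec61a2 in SKO and 15.4, 16.9 and 16.0 in DKO. The log2 ratio changed by -0.89, from 4.89 ± 0.28 to 4.003 ± 0.066 (SD, n = 3). For Tram1 over Tram2 the SKO ratios were 10.3, 9.47 and 7.92 and the DKO ratios 5.78, 5.74 and 6.49, a change of -0.61 in log2. Both pairs moved toward the less abundant paralog. Sec11a over Sec11c went from 1.71, 1.93 and 1.98 to 2.72, 3.35 and 3.11, a change of 0.70, and Emc8 over Emc9 from 0.852, 1.01 and 1.25 to 1.43, 1.92 and 1.48, a change of 0.64. In none of the 4 pairs did SKO and DKO libraries overlap. Each pair joins a gene called lower, whose libraries did not overlap, to a gene not called, so the ratios largely restate those calls. How often ratios of other gene pairs separate was not tested. Each gave p = 0.10 in a two-sided exact permutation test, and 0.10 adjusted over the 4 pairs, which is the smallest p that 3 against 3 libraries allow.

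**Figure D3:**
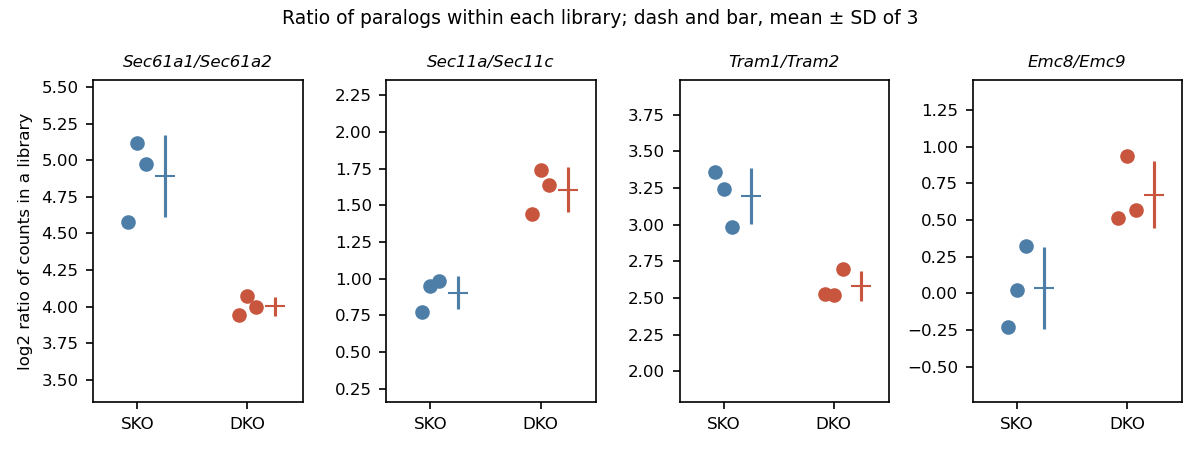
Log2 ratio of the counts of paralogs in each library, with SKO in blue and DKO in red, 1 point per library, and the mean ± SD of 3 libraries as a dash and bar. Each panel spans the same number of log2 units, and the groups separate in all 4 panels.

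Levels of different genes were compared as CPM per kilobase of annotated exon. Ssr3 was highest in SKO at 71.8 ± 1.82 CPM per kilobase, followed by Serp1 at 63.2 ± 5.29, Srpr at 56.0 ± 2.28, Emc6 at 49.8 ± 1.43 and Tram1 at 42.3 ± 2.03. In DKO Ssr3 was again first, at 48.5 ± 1.37, but Emc6 followed at 46.9 ± 2.20 and Srpr at 42.9 ± 1.55, while Serp1 stood at 33.2 ± 2.03 and Tram1 at 23.7 ± 0.844. Ssr3 and Emc6 overlapped between DKO libraries, so their order there is not clear of the spread. On the same scale Ssr2 made up 26.5% ± 0.541 of the summed TRAP level in SKO and 34.5% ± 1.15 in DKO, and Ssr4 went from 20.9% ± 1.23 to 16.6% ± 0.676. Of the signal peptidase genes, Spcs1 went from 42.5% ± 1.16 to 49.5% ± 0.198 of the sum and Spcs2 from 18.1% ± 0.794 to 13.9% ± 0.217. Within the sum of the 9 EMC genes listed here, Emc4 went from 18.3% ± 0.498 to 21.2% ± 0.788 and Emc9 from 7.21% ± 1.03 to 5.22% ± 0.371, both without overlap. Emc6 overlapped at 28.8% ± 0.768 and 27.9% ± 1.27. A subunit outside the list is not in that sum. These are shares of mRNA and say nothing of the assembled proteins.

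**Figure D4:**
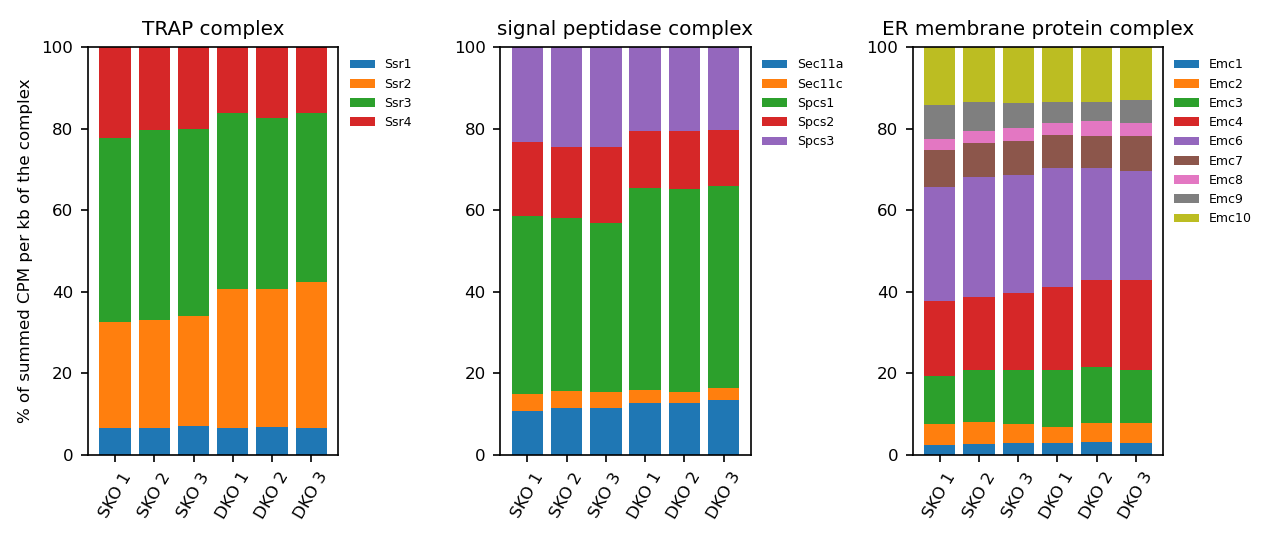
Stacked shares of the summed CPM per kilobase of the listed genes of 3 complexes in each of the 6 libraries. The share of Ssr2 in TRAP and that of Spcs1 in signal peptidase is larger in the 3 DKO libraries than in the 3 SKO libraries. The same holds for Emc4 among the 9 listed EMC genes.

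Neighbouring steps were read from lists of other genes. The oligosaccharyltransferase, which adds N-glycans to chains as they enter, had 7 of 12 genes lower and none higher, with a median log2 fold change of -0.46. By the same edgeR test 9.70% of all tested genes were lower and 10.3% higher. DESeq2 called 7 lower and 0 higher, and edgeR had 8 lower and 0 higher at an unadjusted p under 0.05. Magt1, a subunit of the STT3B form of the enzyme, had 83.2, 85.5 and 91.6 CPM in SKO and 44.3, 46.3 and 49.4 in DKO (log2 -0.90 ± 0.07, edgeR adjusted p = 6.26e-05). Rpn1, a subunit near the ribosome at the translocon, went from 133 ± 2.99 to 73.8 ± 3.70 CPM (log2 -0.85 ± 0.07) and Rpn2 from 202 ± 20.4 to 135 ± 3.38 CPM (log2 -0.58 ± 0.09). Stt3a, the catalytic subunit that sits at the translocon, fell by 0.41 ± 0.09 on the log2 scale, and Stt3b, the catalytic subunit of the other complex, was not called (log2 0.03 ± 0.07). With total counts only, 5 of the 27 tested genes of this and the next list together were lower and 8 higher. Of all tested genes, 3.85% were lower and 27.6% higher with that scaling. With TMM, 10 of the 27 were lower and 1 higher.

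Among 15 tested genes of other targeting and insertion factors, 3 fell and 1 rose by edgeR, with a median of 0.02. Over all tested genes 9.70% fell and 10.3% rose. At an unadjusted edgeR p under 0.05, 4 of the 15 were lower and 2 higher, and DESeq2 called 2 lower and 1 higher. Tmem208, a component of a further ER targeting route, had 39.5, 33.7 and 33.9 CPM in SKO and 18.5, 18.7 and 19.2 in DKO (log2 -0.93 ± 0.09, edgeR adjusted p = 0.000154). Tmem147, a partner of nicalin and NOMO at the channel for multi-spanning proteins, had 68.8 ± 2.51 CPM in SKO and rose to 88.1 ± 5.06 (log2 0.36 ± 0.07, edgeR adjusted p = 0.00779). The others that fell were Srp54c, described above, and Ubl4a of the GET pathway (log2 -0.25 ± 0.07), named after its value was seen. Tmco1, Ccdc47, Wdr83os, Nomo1 and Ncln, which act with the same multi-spanning channel, were not called, with log2 fold changes from -0.17 (Ncln) to 0.22 (Wdr83os). DKO libraries of Wdr83os lay wholly above SKO, at 20.8 ± 1.126 and 17.8 ± 1.31 CPM (edgeR adjusted p = 0.119).

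Protein import into mitochondria and folding in the cytosol gave a view outside the ER. Over all tested genes, edgeR called 9.70% lower and 10.3% higher, and DESeq2 called 9.66% and 9.97%. Of 28 mitochondrial import genes tested, 3 were lower (Tomm70a, Timm21 and Timm9) and 1 higher (Hspa9) by edgeR, with a median of -0.04. At an unadjusted edgeR p under 0.05, 5 of these were lower and 3 higher, and DESeq2 called 3 and 1. Of 14 genes of the cytosolic chaperonin and prefoldin, 0 were lower and 2 higher (Cct2 and Cct3) by edgeR, with a median of 0.07; at an unadjusted p under 0.05 there were 2 lower and 2 higher, and DESeq2 called 0 and 2. The 6 genes named here were picked with their values known. No test compared these lists with the ER genes.

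Under other scalings the 41 fold changes moved together. With total counts alone 12 genes were lower and 9 higher, where 3.85% of all tested genes were lower and 27.6% higher. The 12 were Sec61a1, Sec61b, Sec63, Ssr1, Ssr3, Ssr4, Tram1, Serp1, Hspa13, Sec11c, Spcs2 and Spcs3. The same 12 genes were called lower under each of the 12 alternatives tried. The 9 called higher with total counts were Srp14, Wrb, Asna1, Sgta, Bag6, Emc1, Emc3, Emc4 and Emc8, a smaller share than that of all genes. The median of the 41 genes stayed 0.15 below the median of all genes with TMM, RLE, upper-quartile and total-count scaling.

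**Figure D5:**
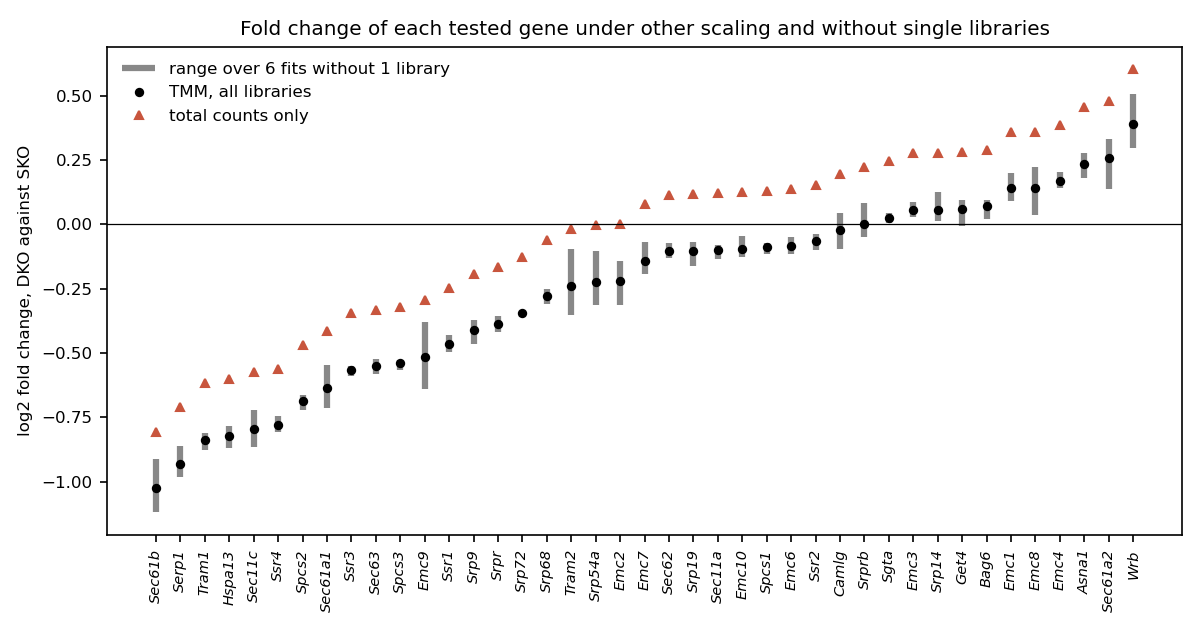
Log2 fold change of each of the 41 genes, ordered by value, with TMM scaling (black), with total counts only (red triangles) and over the 6 fits that each leave out 1 library (grey bars). The triangles lie above the black points by a near-constant amount. All 17 genes called lower remain below 0 in every fit shown, and so do Srp54a, Tram2 and Emc2, which were not called.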

How the data were processed

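The authors deposited 1 table of raw read counts per library, whole numbers for each of 54232 Ensembl genes. Per the submitters' processing notes, cutadapt 1.13, STAR, HTSeq 0.6.1p1, DESeq2 and mm10 were used. Settings, annotation and strand use were not given in the sources used here. Overlapping or near-identical genes are therefore uncertain. Genes were named by GENCODE M21 (54165 matched, 67 not), and Camlg matched as Caml. Libraries were grouped by the labelled genotype, and replicate numbers follow accession order and pair nothing. Chi-square per degree of freedom was 10.2 to 29.4 between library pairs of a group, above counting noise, so no library was taken for another deposited again. This does not show separate animals. Counts were filtered with filterByExpr and tested with edgeR 4.0.16 (R 4.3.3; TMM factors, glmQLFit and glmQLFTest, robust), with Benjamini-Hochberg adjustment over 13986 genes and a call at an adjusted p under 0.05. The pipeline was tested on simulated data. DESeq2 1.42.0, limma-voom (limma 3.58.1), other factors, no filter and leaving out each library were alternatives. Per-library values are printed for the 2 called genes with the smallest p in each role group, for paralogs and for genes called higher, the 3 called genes with the smallest p are named from each neighbouring list, and promoters are printed for the 4 called genes with the smallest p that had an entry. Paralog ratios used 0.5 added to each count. Stt3a, Stt3b, Tmco1, Ccdc47, Wdr83os, Nomo1, Ncln and Ubl4a were named outside this rule, with their values known. Members and lists were chosen with earlier results of these data known. Protein sequences were not used here.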

Additional observations from a re-analysis of the deposited data

How the results depend on the processing

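The number of genes called lower, 17, was 12 to 17 under the 12 alternatives, and 15 to 17 without single libraries. The number called higher, 1, became 0 with RLE factors, no filter, DESeq2 and limma-voom, 2 with upper-quartile factors and 9 with total counts only, and ranged from 0 to 1 without single libraries. In the neighbouring lists 10 genes were lower and 1 higher, against 5 and 8 with total counts only, and 8 to 9 and 1 without single libraries. With total counts only, 3.85% of all tested genes were lower and 27.6% higher. Total counts only turned the sign of Srp19 (log2 0.12), Sec62 (0.11), Ssr2 (0.15), Sec11a (0.12), Spcs1 (0.13), Camlg (0.20), Emc6 (0.14), Emc7 (0.077) and Emc10 (0.13), none called. Srprb, near 0, turned to -0.0042 with RLE factors and with DESeq2, to -0.0011 with no filter, and ranged from -0.050 to 0.084 without single libraries, below 0 for 4 of the 6. Camlg turned to 0.038 with upper-quartile factors and ranged from -0.095 to 0.043 without single libraries, and Get4 from -0.0070 to 0.093. The calls of Srp9, Srp68, Srp72, Srpr and Emc9 ended with total counts only. The paralog changes ranged, without single libraries, from -1.04 to -0.77 (Sec61a1 over Sec61a2), 0.64 to 0.79 (Sec11a over Sec11c), -0.72 to -0.53 (Tram1 over Tram2) and 0.50 to 0.78 (Emc8 over Emc9). The cause of these changes was not tested. No paired analysis was possible because the labels give no number that ties a SKO library to a DKO library. Low counts limit Sec61g, Srp54a, Wrb and Sec61a2.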
